A study of Drosophila melanogaster with 16 samples.

Results

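The genes described here are the ecdysone receptor and the early genes of the ecdysone response in *Drosophila melanogaster* S2 cells. They are EcR, usp, Eip74EF, Eip75B, Eip78C, Eip71CD, br, Hr4 and ftz-f1, chosen by symbol, and all 9 matched 1 row each among the 17737 genes of the count table. S2 cells are a line derived from late embryos with properties of hemocytes, the blood cells of the fly. Ribosomal-depleted paired-end RNA-seq was available for 16 libraries in 5 groups: 3 KD, 3 PARPi and 3 WT libraries labelled December, and 4 KD and 3 WT libraries labelled October. KD cells carried siRNA against PARP1, the enzyme that attaches poly(ADP-ribose) to proteins. PARPi cells were given 10 µM PJ34, which blocks that activity, for 16 h, and WT cells had neither treatment. No group was given ecdysone, all cells were of 1 line, and the sources name neither a control siRNA nor a vehicle for the WT cells. The comparisons ask how the levels of these genes in KD and in PARPi differed from WT, and whether the KD difference was the same in both months.

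As background, ecdysone is the steroid hormone that times molting and metamorphosis in insects. It is bound by a heterodimer of 2 nuclear receptors, EcR and Ultraspiracle (the product of usp), and the bound dimer switches on a small set of early genes directly. Most early genes encode transcription factors, which in turn control larger sets of late genes, and several of them also feed back on the response. S2 cells carry both receptor partners and have long served as a cell model for the hormone.

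The libraries held 58531662 to 90439074 counts each. Levels below are CPM (counts scaled to a common library size) after TMM scaling over all 16 libraries, and an adjusted p comes from the quasi-likelihood test of edgeR, adjusted by Benjamini-Hochberg over all genes tested. The libraries labelled KD did not have a clear loss of the targeted mRNA (the study's methods checked the knockdown by Western blot of the protein, which is not part of the files analysed here). Parp1 was at 168, 176 and 145 CPM in KD against 179, 191 and 167 CPM in WT in December (log2 fold change -0.14, edgeR adjusted p = 0.32), and at 72.3, 76.3, 82.8 and 71.6 CPM in KD against 89.0, 87.8 and 71.1 CPM in WT in October (log2 fold change -0.15, edgeR adjusted p = 0.0962). Mitochondrial large ribosomal RNA took 15.3% to 17.1% of the counts in KD October against 9.84% to 12.4% in WT October, and 7.89% to 10.8% in the December libraries. Of 12 hemocyte and S2 markers, 10 were at 1 CPM or more on average in each December group and 11 in each October group, while NimC1, a receptor of mature hemocytes, was near 0. Markers of muscle, fat body and salivary gland summed to less than 3 CPM in every library, but those of neurons summed to 60.1 to 76.1 CPM, mostly from elav and brp. Those of germ cells summed to 4.72 to 14.5 CPM, with 2 of 5 at 1 CPM or more in each group. Those of ovarian somatic cells summed to 10.2 to 24.8 CPM, with only 1 of 4 at 1 CPM or more. Fewer cells of a type and less RNA per cell cannot be told apart in such bulk samples. The study's text calls the RNA-seq experiments independent, but the labels do not tie the libraries to separate cultures, so the p-values measure the spread between these libraries, which may be technical.

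The 9 genes spanned a wide range of levels. Per kilobase of summed exon length, Eip71CD was the most abundant in every group, at 15.9 CPM per kb in KD, 15.0 in PARPi and 15.0 in WT of December, and at 18.0 in KD and 22.3 in WT of October. In WT December the order of mean CPM per kb was Eip71CD, usp, Eip75B, ftz-f1, EcR, Eip74EF, br, Eip78C and Hr4, and no neighbours in that order overlapped between libraries. KD December had the same order, also without overlap, and in PARPi only Eip75B and ftz-f1 overlapped. In October ftz-f1 stood above Eip75B in KD and in WT, br and Eip74EF overlapped in both, and usp and ftz-f1 overlapped in KD. Among 12721 genes ranked by mean CPM per kb over the 16 libraries, Eip71CD lay at percentile 75.5, usp at 64.5, EcR at 50.3, Eip78C at 28.2 and Hr4 at 6.87. Hr4 had 2 to 27 counts per library and Eip78C 24 to 118, so the counting error was 27.7% to 36.6% of the Hr4 level and 10.7% to 16.6% of the Eip78C level, depending on the group. The plot of levels by library shows each gene in all 16 libraries.

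**Figure D1:**
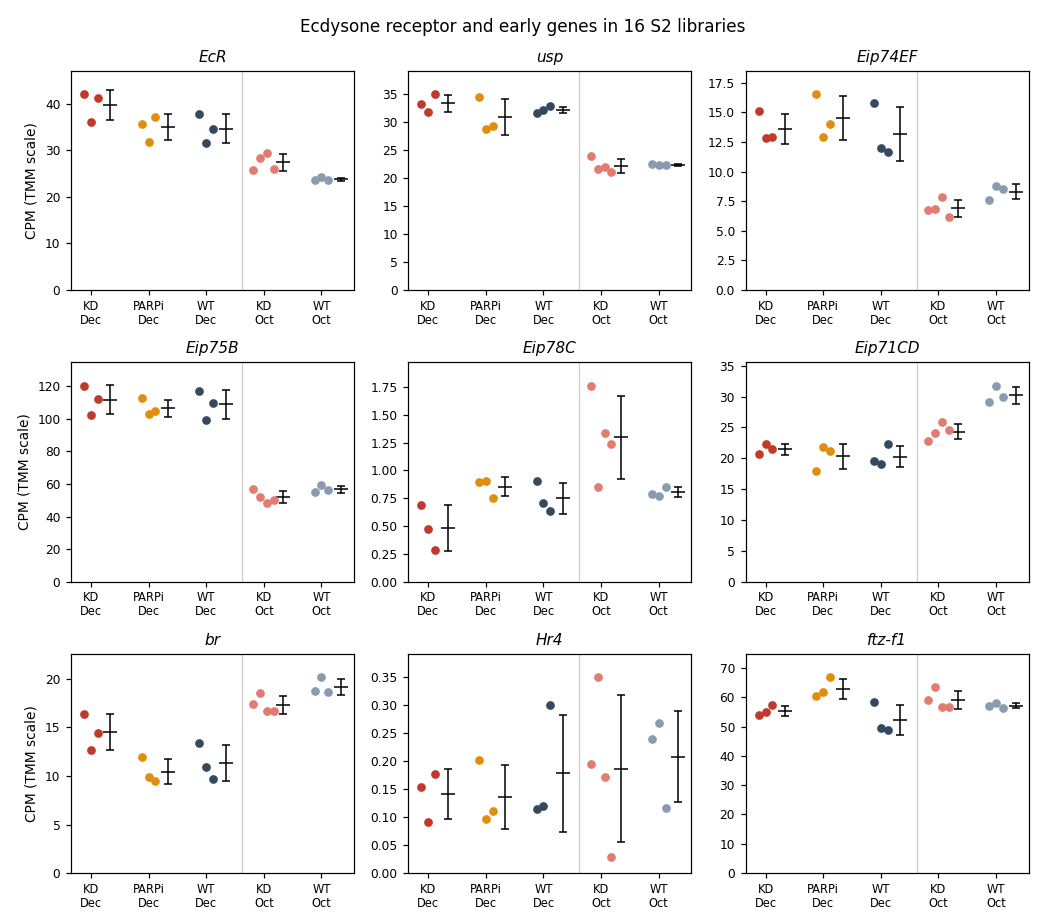
Level of each gene in CPM (TMM scale, linear axis from 0) in every library, by group; points are libraries and the black marks are group means with SD. EcR, usp, Eip74EF and Eip75B lay higher in WT December than in WT October, while Eip71CD and br lay lower.

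In the December libraries few differences of the ecdysone genes between treatments passed the test. None of the 9 passed the test in KD against WT, where 7.73% of all genes tested did, although 3 of them (EcR, Eip78C and br) had an unadjusted p below 0.05 in edgeR and 1 passed with DESeq2. None passed in PARPi against WT, where 0.290% of all genes did, although 1 (ftz-f1) had an unadjusted p below 0.05 in edgeR and 1 passed with DESeq2. Of all 11729 genes, 2366 in KD and 1361 in PARPi had an unadjusted p below 0.05 in edgeR. With DESeq2, 1102 of all genes passed in KD and 135 in PARPi. The direct comparison of KD with PARPi called 1 gene, br, which was higher in KD, where 5.52% of all genes were called. None was called there without KD December replicate 3, PARPi December replicate 2 or PARPi December replicate 3, and without KD December replicate 1 the gene called was Eip78C in place of br. Deviations of same-numbered KD and PARPi libraries correlated at 0.57, 0.33 and 0.13, so only weakly for replicate 3. The labels do not say what a replicate number stands for. A fit of the December libraries blocked on that number called 4 of the 9 (EcR and br higher, Eip78C and ftz-f1 lower in KD) and 1738 of 11729 genes. The shares of all genes also rest on single libraries: without 1 library the genes called were 251 to 1212 (907 with all) in KD against WT, 4 to 91 (34 with all) in PARPi against WT and 179 to 1608 (648 with all) in KD against PARPi. In October, 6 of the 9 passed in KD against WT: EcR and Eip78C rose and Eip74EF, Eip75B, Eip71CD and br fell, where 27.8% of all genes passed. That count was 2 without KD October replicate 3 or 4 and 1 without WT October replicate 2 or 3, and Eip71CD was called in each of these fits. The KD difference itself differed between the months for 3 genes, Eip78C, Eip71CD and br, where 14.1% of all genes did. Between untreated cells of the 2 months, 6 of the 9 differed, where 61.4% of all genes did. The median log2 fold change of the 9 genes was 0.05 in KD December, 0.00 in PARPi December and -0.15 in KD October, beside 0.01, -0.01 and 0.01 over all genes tested.

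**Figure D2:**
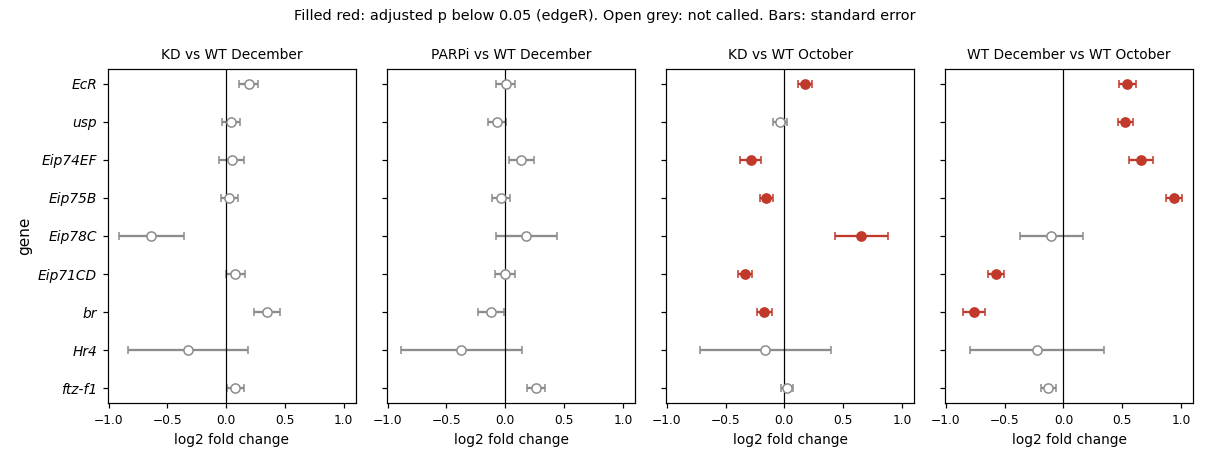
Log2 fold change with its standard error for each gene in 4 comparisons: KD over WT and PARPi over WT in December, KD over WT in October, and WT December over WT October. Filled red points have an edgeR adjusted p below 0.05, which none has in the first pair of panels and 6 of 9 have in each of the others.

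EcR encodes the ecdysone-binding partner of the receptor and lies on the minus strand of chromosome arm 2R, with 6 annotated transcripts. It was at 42.0, 36.1 and 41.2 CPM in KD December, 35.7, 31.8 and 37.2 CPM in PARPi December and 37.8, 31.7 and 34.5 CPM in WT December. KD replicates 1 and 3 lay above all other libraries, but the groups overlapped, and the log2 fold change of 0.19 (SE 0.08) in KD did not pass (edgeR adjusted p = 0.17). That of PARPi was 0.00 (SE 0.08). KD over PARPi gave 0.19, which passed with the replicate block (edgeR adjusted p = 0.0271) and not with TMM alone. With the length trend removed it was 0.04 and did not pass (edgeR adjusted p = 0.738). In October EcR was at 25.7, 28.4, 29.5 and 26.0 CPM in KD, against 23.6, 24.2 and 23.7 CPM in WT. All KD libraries lay above all WT libraries, as the groups of 33.3% of all genes did not overlap in this comparison. EcR thus had a log2 fold change of 0.18 (SE 0.06, edgeR adjusted p = 0.0275), a 1.13-fold difference, and an exact two-sided permutation test of the 4 KD against the 3 WT libraries gave p = 0.0571, where 0.0286 is the smallest it allows. The call was lost in 7 of 14 alternative fits, among them those without KD October replicate 2 or 3 and without any one of the WT October replicates. The KD difference of December minus that of October was 0.00 (SE 0.10) on the log2 scale and did not pass the test.

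The partner gene, usp, encodes the fly homolog of the vertebrate RXR receptors. It lies on the X chromosome (BDGP6, 2038798 to 2042311, minus strand), and its exons share 265 bases with Actn and 196 bases with CG4313. The level was 33.2, 31.9 and 35.01 CPM in KD December, 34.6, 28.7 and 29.3 CPM in PARPi December and 31.7, 32.1 and 32.9 CPM in WT December. In October it was 23.9, 21.6, 22.05 and 21.1 CPM in KD and 22.6, 22.3 and 22.3 CPM in WT. The groups overlapped within each month, with log2 fold changes of 0.04 (SE 0.08) in KD and -0.07 (SE 0.08) in PARPi in December and of -0.04 (SE 0.06) in KD in October. None of these passed the test.

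Both receptor genes were higher in the untreated cells of December than in those of October. EcR had a log2 difference of 0.54 (SE 0.07, edgeR adjusted p = 1.1e-07) and usp one of 0.53 (SE 0.06, edgeR adjusted p = 1.3e-08), or 1.45-fold and 1.44-fold. Scaling by plain totals without the 20 genes of most counts, in place of TMM, lowered these differences to 0.18 for EcR (edgeR adjusted p = 0.0480) and 0.16 for usp (edgeR adjusted p = 0.0359), as it moved the median of all genes to -0.46, against -0.10 with TMM. With the length trend removed they were 0.32 for EcR and 0.64 for usp. All WT December libraries lay above all WT October libraries for both, as the groups of 65.5% of all genes did not overlap. Actn, which shares exon bases with usp, differed in the same direction by 0.76. Month cannot be told apart from whatever else differed between the 2 sets of libraries. Among the markers, Hml, a clotting protein of hemocytes, averaged 302 CPM in WT December and 15.5 CPM in WT October. Of the 12 hemocyte markers 8 were higher and 4 lower in WT December, beside 61.4% of all genes called in either direction. The part of these differences in the levels of the ecdysone genes was not tested.

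Eip74EF and Eip75B were described early as puffs on the polytene chromosomes of the salivary gland. Eip74EF encodes an ETS-domain transcription factor (3L, 17558672 to 17619325, minus strand). It was at 15.1, 12.8 and 12.96 CPM in KD December, 16.5, 12.9 and 14.1 CPM in PARPi December and 15.8, 12.0 and 11.7 CPM in WT December, and replicate 1 was the highest in each group. The log2 fold changes in December, 0.05 (SE 0.11) in KD and 0.14 (SE 0.11) in PARPi, did not pass. In October it was at 6.74, 6.88, 7.89 and 6.18 CPM in KD against 7.59, 8.81 and 8.55 CPM in WT. KD replicate 3 lay above WT replicate 1, while the other KD libraries lay below all WT libraries. The log2 fold change was -0.29 (SE 0.09, edgeR adjusted p = 0.0196), and the call was kept in 11 of 14 alternatives and lost without KD October replicate 4, WT October replicate 2 or WT October replicate 3 (adjusted p up to 0.0997 in edgeR). The test of the difference between the months gave 0.32 (SE 0.14, edgeR adjusted p = 0.142).

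Eip75B encodes a nuclear receptor that carries heme (3L, 17950953 to 18064696, minus strand, 7 annotated transcripts). It had the highest CPM of the 9 genes in December, at 120, 103 and 112 CPM in KD, 113, 103 and 105 CPM in PARPi and 117, 99.7 and 110 CPM in WT. These groups overlapped, with log2 fold changes of 0.03 (SE 0.07) in KD and -0.04 (SE 0.07) in PARPi. In October the level was 57.0, 51.9, 48.6 and 50.2 CPM in KD against 55.1, 59.3 and 56.1 CPM in WT. KD replicate 1 lay within the WT range and the other KD libraries below it. Its log2 fold change was -0.15 (SE 0.05, edgeR adjusted p = 0.0387), and the call was lost without KD October replicate 2, 3 or 4 and without WT October replicate 2 or 3 (edgeR adjusted p up to 0.167 over the alternatives). The call was also lost with the replicate block (edgeR adjusted p = 0.0597).

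Both genes also differed between the untreated cells of the months. With TMM Eip75B had the largest such difference of the 9 genes, 0.94 on the log2 scale (SE 0.07, edgeR adjusted p = 3.7e-13) or 1.92-fold. Every WT December library lay above every WT October library, where 65.5% of all genes had no overlap. Eip74EF differed by 0.66 (SE 0.10, edgeR adjusted p = 1.7e-06). Both differences kept their sign and passed in all 20 alternatives, although scaling by plain totals lowered them to 0.58 for Eip75B and 0.30 for Eip74EF, and br, at -1.12, then had the largest difference.

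The gene br (broad) encodes a family of BTB zinc finger proteins needed for metamorphosis, made by alternative splicing of a gene with 16 annotated transcripts and 9 annotated start sites (X, 1575132 to 1664869, plus strand). It was at 16.4, 12.7 and 14.5 CPM in KD December, 11.9, 9.95 and 9.502 CPM in PARPi December and 13.4, 10.9 and 9.70 CPM in WT December. All KD libraries lay above all PARPi libraries, as the groups of 21.8% of all genes did not overlap in that comparison. KD replicate 2 lay below WT replicate 1. KD over PARPi gave a log2 fold change of 0.47 (SE 0.11, edgeR adjusted p = 0.0150) or 1.39-fold. This call was lost without KD December replicate 1 or 3 and without PARPi December replicate 2 or 3, with adjusted p up to 0.136 in edgeR, and with the replicate block it was kept (0.47, edgeR adjusted p = 6.1e-05). KD over WT gave 0.35 (SE 0.11, edgeR adjusted p = 0.0568), just outside the threshold, and passed in 9 of 18 alternatives, among them DESeq2 and the fits without KD December replicate 2, PARPi December replicate 1 or WT December replicate 1. PARPi over WT gave -0.12 (SE 0.11). Hml, the hemocyte marker above, was lower in KD than in WT in December by 0.40 (edgeR adjusted p = 0.00619), and its part was not tested.

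In October br was at 17.4, 18.5, 16.7 and 16.6 CPM in KD against 18.7, 20.2 and 18.6 CPM in WT. All KD libraries lay below all WT libraries, the nearest by a small margin, where 33.3% of all genes had no overlap. The log2 fold change was -0.17 (SE 0.06, edgeR adjusted p = 0.0425), lost without KD October replicate 1, 3 or 4 and without WT October replicate 2 or 3 (edgeR adjusted p up to 0.181 over the alternatives). The call was also lost with the replicate block (edgeR adjusted p = 0.0861). The exact two-sided permutation p was 0.0571. The KD difference of December minus that of October was 0.50 (SE 0.13, edgeR adjusted p = 0.00596), which passed in all 20 alternatives. In untreated cells br was lower in December than in October by 0.76 on the log2 scale (SE 0.09, edgeR adjusted p = 2.1e-08), again in all 20 alternatives. That difference was -1.17 with the length trend removed and -1.12 with plain totals. Of its exon bases 189 are shared with Mur2B on the opposite strand, and the strand setting of the counting was not given. Mur2B averaged 3.79 CPM in KD October against 2.34 CPM in WT October (log2 fold change 0.67), a difference of the opposite sign.

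Eip78C encodes an orphan nuclear receptor related to Eip75B (3L, 21226609 to 21266503, plus strand). It lay between 0.283 and 1.76 CPM in the 16 libraries, so each value rests on few counts. It was at 0.693, 0.471 and 0.283 CPM in KD December, 0.897, 0.909 and 0.756 CPM in PARPi December and 0.903, 0.709 and 0.637 CPM in WT December. All KD libraries lay below all PARPi libraries, where 21.8% of all genes had no overlap, and KD replicate 1 lay within the WT range. On the log2 scale KD over WT was -0.64 (SE 0.28, edgeR adjusted p = 0.186), KD over PARPi -0.82 (SE 0.27, edgeR adjusted p = 0.083) and PARPi over WT 0.18 (SE 0.26). None of the 3 passed. With the replicate block KD over PARPi was -0.86 and passed (edgeR adjusted p = 0.0195). With the length trend removed and no block it was -0.94 and also passed (edgeR adjusted p = 0.0209). KD over WT was -1.01 without KD December replicate 1 and -0.37 without KD December replicate 3.

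In October Eip78C was at 1.76, 0.853, 1.34 and 1.24 CPM in KD against 0.790, 0.774 and 0.854 CPM in WT. KD replicate 2 lay within the WT range and the other KD libraries above it. KD over WT gave 0.66 on the log2 scale (SE 0.22, edgeR adjusted p = 0.0321) or 1.58-fold, and the call was lost without KD October replicate 1, 3 or 4 and without any one of the WT October replicates. The call was also lost with the length trend removed (edgeR adjusted p = 0.0638). The direction of KD against WT was thus lower in December, where it did not pass, and higher in October. The difference between the months was -1.31 on the log2 scale (SE 0.37, edgeR adjusted p = 0.0160). It passed in 18 of 20 alternatives and was lost without KD December replicate 3 or WT December replicate 1 (edgeR adjusted p up to 0.063). Between untreated cells of the months the log2 difference of -0.10 (SE 0.27) did not pass.

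Eip71CD encodes a methionine sulfoxide reductase, an enzyme that repairs oxidised methionine in proteins, and is the only one of the 9 genes that does not encode a transcription factor (3L, 15511052 to 15513202, plus strand). It was at 20.6, 22.4 and 21.4 CPM in KD December, 18.0, 21.8 and 21.2 CPM in PARPi December and 19.5, 19.0 and 22.3 CPM in WT December. The groups overlapped, and the log2 fold changes were 0.08 (SE 0.08) in KD and 0.00 (SE 0.08) in PARPi. In October it was at 22.8, 24.1, 25.9 and 24.6 CPM in KD against 29.0, 31.7 and 29.9 CPM in WT. Every KD library lay below every WT library with a clear gap, where 33.3% of all genes had no overlap.

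The log2 fold change of Eip71CD in KD October was -0.34 (SE 0.06, edgeR adjusted p = 0.00017), or 0.793 of the WT level, and the exact two-sided permutation p was 0.0286, the smallest that 4 against 3 libraries allow. It was the only one of the 6 October calls that passed in all 14 alternatives. The KD difference of December minus that of October was 0.40 (SE 0.09, edgeR adjusted p = 0.00422) and passed in all 20 alternatives. Untreated cells had less Eip71CD in December than in October, by 0.58 on the log2 scale (SE 0.07, edgeR adjusted p = 1.5e-08). The size depended on the scaling: -0.26 with the length trend removed and -0.94 with plain totals. The share of mitochondrial large ribosomal RNA also separated KD from WT in October, with no overlap, and its part in the October calls was not tested.

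Hr4 and ftz-f1 encode nuclear receptors that act later in the hormone pulse than the early genes. Hr4 lies on the X chromosome (1941940 to 2007956, plus strand) and shares 46 exon bases with PIG-K. It had 14, 7 and 15 counts in KD December, 17, 7 and 9 counts in PARPi December and 9, 10 and 23 counts in WT December. In October it had 13, 27, 12 and 2 counts in KD and 17, 18 and 8 counts in WT. The groups overlapped in every comparison, and with standard errors of 0.51 to 0.79 on the log2 scale only a large difference could have been called. PIG-K had 1546 to 3111 counts per library, so reads from the shared bases could be part of the Hr4 counts, which was not tested.

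The product of ftz-f1 gives cells the competence to respond to a later pulse of the hormone (3L, 18750607 to 18801309, minus strand). The gene was at 54.0, 54.8 and 57.3 CPM in KD December, 60.4, 61.7 and 66.8 CPM in PARPi December and 58.3, 49.7 and 48.9 CPM in WT December. It was the only one of the 9 genes for which all PARPi libraries lay above all WT libraries, as 15.3% of all genes had no overlap there. The log2 fold change in PARPi was 0.26 (SE 0.07, edgeR adjusted p = 0.143), 1.20-fold, with an exact two-sided permutation p of 0.1, the smallest that 3 against 3 libraries allow. It did not pass in edgeR, and it passed in 4 of 17 alternatives, DESeq2 among them. KD over PARPi was -0.18, which passed with the replicate block (edgeR adjusted p = 0.0452) and not with TMM alone. With the length trend removed and no block it was -0.32 and passed (edgeR adjusted p = 0.00108). All KD libraries lay below all PARPi libraries for ftz-f1, where 21.8% of all genes had no overlap.

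In KD against WT ftz-f1 had log2 fold changes of 0.08 (SE 0.07) in December and 0.02 (SE 0.05) in October, where it was at 59.2, 63.5, 56.8 and 56.8 CPM in KD against 57.2, 58.1 and 56.2 CPM in WT. Between untreated cells of the months the log2 difference of ftz-f1 was -0.13 (SE 0.06, edgeR adjusted p = 0.0827), which did not pass. Other scalings did pass: -0.15 with RLE factors (edgeR adjusted p = 0.0490), -0.31 with the length trend removed (edgeR adjusted p = 6.8e-06) and -0.49 with plain totals (edgeR adjusted p = 3.5e-07). The non-coding gene lncRNA:CR45939 shares 2521 exon bases with ftz-f1 on the same strand and had 24 to 107 counts per library, against 3764 or more for ftz-f1.

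Ratios of counts per kilobase within a library do not depend on a scaling factor shared by all genes of that library. They do depend on the length correction, which differs between genes of unlike exon length. With it, WT December over WT October was 0.32 for EcR and 0.64 for usp, against 0.54 and 0.53 with TMM. In all, 4 ratios, without this correction, were computed for genes chosen after their levels were seen, so they are given as descriptions without a test. The ratio of br to Eip74EF averaged 0.491 ± 0.030 in KD, 0.334 ± 0.022 in PARPi and 0.399 ± 0.019 in WT of December (SD, n = 3 each), with no overlap between any of these groups. In October it averaged 1.17 ± 0.13 in KD and 1.07 ± 0.07 in WT (SD, n = 4 and 3), with overlap, so that br averaged above Eip74EF on this scale in October, although KD October replicate 3 was at 0.976, and stood well below it in December. The ratio of Eip75B to EcR was lower in all KD than in all WT libraries in each month, at 2.07 ± 0.06 in KD against 2.32 ± 0.03 in WT in December and 1.41 ± 0.18 in KD against 1.76 ± 0.04 in WT in October. The ratio of ftz-f1 to Eip75B averaged 0.781 ± 0.070 in KD, 0.928 ± 0.081 in PARPi and 0.752 ± 0.047 in WT of December, and 1.79 ± 0.12 in KD and 1.58 ± 0.05 in WT of October. PARPi libraries lay above both other December groups in this ratio. The ratio of EcR to usp averaged 0.364 ± 0.021 in KD, 0.347 ± 0.037 in PARPi and 0.329 ± 0.032 in WT of December, and 0.379 ± 0.036 in KD and 0.326 ± 0.006 in WT of October, with overlap in both months.

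**Figure D3:**
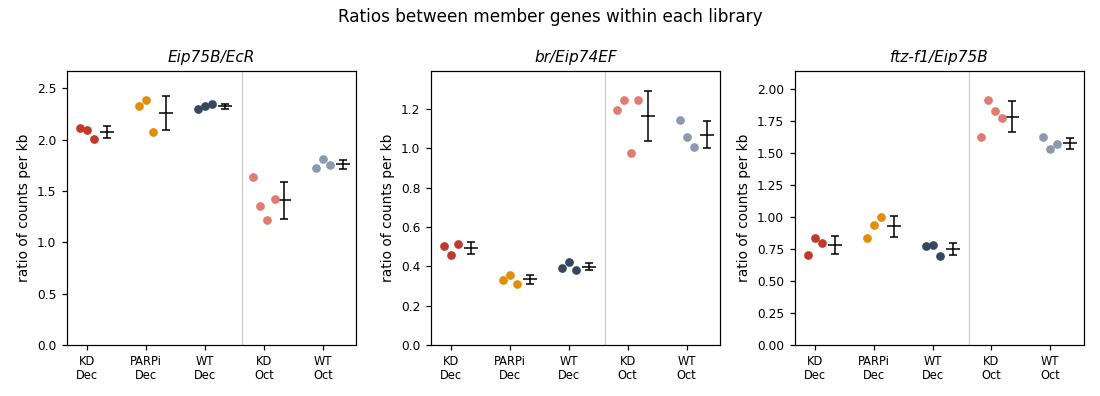
Ratio of counts per kilobase of exon between pairs of the genes within each library (linear axis from 0); points are libraries and black marks are group means with SD. The br to Eip74EF ratio lay near 0.491 in KD, 0.334 in PARPi and 0.399 in WT of December and above 0.97 in every October library.

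Other genes of the pathway were counted over lists written by hand. The proteins that work with the receptor dimer or carry the hormone were all expressed, with 18 of 18 listed genes at 1 CPM or more. None was called by edgeR in KD or in PARPi against WT in December, where 1 and 5 genes had an unadjusted p below 0.05 and DESeq2 called 1 gene each. Of all 11729 genes, edgeR called 907 in KD and 34 in PARPi, and DESeq2 called 1102 and 135. An unadjusted p below 0.05 was found for 2366 of all genes in KD and 1361 in PARPi. In October 5 rose and 3 fell in KD, beside 27.8% of all genes called in either direction. Among them were Hsp83 (-0.58), the Hsp90 chaperone that helps assemble the receptor, Oatp74D (-0.41), the importer of ecdysone, and kto (0.41), a subunit of the Mediator kinase module. Hsp83 averaged 1229 ± 62 CPM in KD and 901 ± 45 CPM in PARPi of December, against 1113 ± 27 CPM in WT, and 828 ± 19 CPM in KD against 1220 ± 95 CPM in WT of October (SD). It was called between KD and PARPi (log2 fold change 0.45), as the only gene of this list by edgeR with TMM, where DESeq2 called 4, plain totals 7 and 11 had an unadjusted p below 0.05. Of all 11729 genes, edgeR with TMM called 648 there, DESeq2 916 and plain totals 917, and 2484 had an unadjusted p below 0.05. The KD difference of Hsp83 in December minus that in October was 0.70 (edgeR adjusted p = 8.4e-07). In untreated cells 13 of the 18 were higher in December and none was lower, beside 61.4% of all genes called in either direction, and with plain totals 7 were higher and 6 lower. The largest with TMM were kto (1.79), trr (1.41), a histone methyltransferase recruited by the receptor, and Nup358 (1.10).

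Late and early-late targets of the hormone moved in both directions. Of 20 tested in December, Ldh (0.34), lactate dehydrogenase, and rpr (0.28), a cell death activator, rose in KD and none fell, beside 7.73% of all genes called. In PARPi edgeR and DESeq2 called none and 2 had an unadjusted p below 0.05. Of all 11729 genes, edgeR called 34 there and DESeq2 135, and 1361 had an unadjusted p below 0.05. Of 18 tested in October, 5 rose and 3 fell in KD, beside 27.8% of all genes called in either direction. Eip93F, a transcription factor of late metamorphosis, averaged 5.96 ± 0.22 CPM in KD against 3.62 ± 0.49 CPM in WT of October (log2 fold change 0.70), and Ldh 291 ± 26 CPM in KD against 182 ± 22 CPM in WT (0.65), while the cell death activator hid fell (-0.59). The KD differences of rpr (0.50) and Eip93F (-0.80) differed between the months. In untreated cells 6 of 22 were higher and 6 lower in December, beside 61.4% of all genes called in either direction. Among them were vri (1.22), Eip93F (-1.18) and Dronc (-0.93), a caspase. Of the 10 listed genes that make or break down ecdysone, 9 were matched, with EO read as CG9519. The matched genes were all below 1 CPM on average.

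The remaining nuclear receptors and the juvenile hormone genes were mostly not called in December. Of 9 other nuclear receptors tested, edgeR and DESeq2 called none in KD or PARPi against WT of December, where 0 in KD and 1 in PARPi had an unadjusted p below 0.05, and in KD October Hnf4 (0.48) and Hr39 (0.16) rose and ERR (-0.24) fell. Hnf4, a lipid-sensing receptor, averaged 41.4 ± 0.5 CPM in KD against 29.3 ± 2.1 CPM in WT of October, and its KD difference differed between the months by -0.46. Of 8 juvenile hormone genes, Jheh1 (0.27), an epoxide hydrolase of the hormone, was the only one called in KD December. In October Kr-h1 (0.38), the main target of juvenile hormone, and its receptor gene gce (0.25) rose and Jheh3 (-0.69) fell. Between untreated cells Hnf4 was higher in December by 1.23 and Hr51 lower by 1.61, and 5 of the 8 juvenile hormone genes were higher and 1 was lower. Of all genes 7.73% were called in KD December, 0.290% in PARPi December, 27.8% in KD October and 61.4% between untreated cells. In December 2366 of 11729 genes in KD and 1361 in PARPi had an unadjusted p below 0.05.

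**Figure D4:**
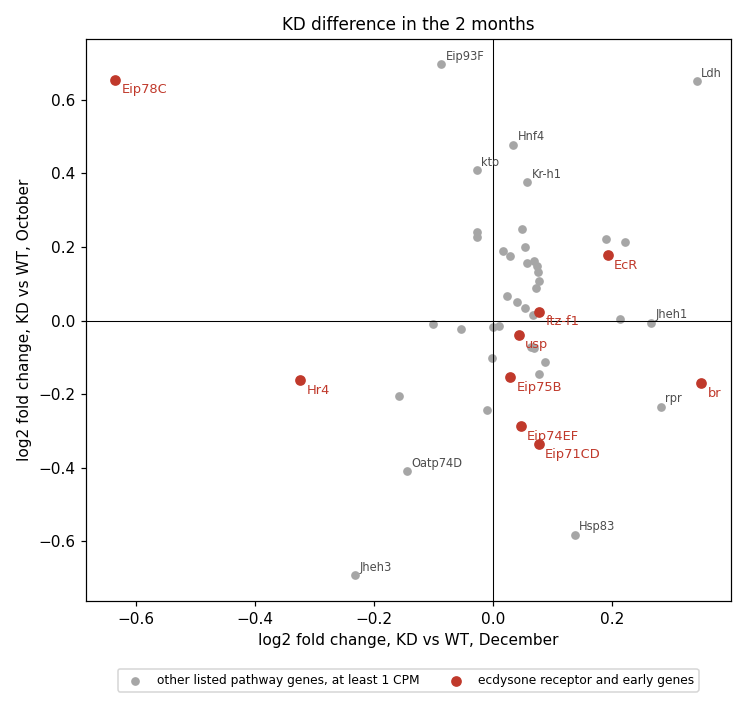
Log2 fold change of KD over WT in December (x axis) against that in October (y axis); red points are the 9 ecdysone genes and grey points are the other listed pathway genes at 1 CPM or more in both fits. Eip78C lies at -0.64 and 0.66 and br at 0.35 and -0.17, while EcR lies at 0.19 and 0.18.

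For the 7 genes above 5 CPM, the genes of most similar pattern were sought among 6597 candidates by Pearson's correlation of log2 CPM over the 16 libraries, after the mean of each month was taken off. These are the highest of many values, and the libraries share depth and treatment, so they are descriptions only. EcR was closest to plum (r = 0.91), usp to csul (0.84), Eip74EF to be (0.88), Eip75B to dbr (0.91), Eip71CD to GstE6 (0.92), a glutathione transferase, br to eIF4G2 (0.93) and ftz-f1 to CG8500 (0.90). None of the 9 genes was itself among the closest 3 of another.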

How the data were processed

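The deposited values are raw whole-number counts per gene, which the authors made with STAR 2.6 (alignment to BDGP6) and HTSeq 0.10.0. Annotation release, strand setting and treatment of shared reads: not given in the sources used here. Symbols, positions and exon lengths came from Ensembl release 115 of BDGP6, which matched 17599 of 17737 genes. Genes needed at least 10 counts in all in a fit, and counts were scaled by TMM and tested with edgeR 4.0.16 (R 4.3.3, quasi-likelihood, threshold 0.05). December groups shared 1 fit of 9 libraries, October 1 fit of 7, and the comparisons between months 1 fit of 13. The fit was tested on simulated data. Alternatives were DESeq2 1.42.0, RLE factors, other filters, plain totals, a length correction, a replicate block and leaving out each library. For KD December a fit of both months with a month term was also run, which estimates a KD difference over both months. All 9 genes passed the filter in every fit and are named. From each list up to 3 called genes of at least 1 CPM with the largest change were named, and Hml, NimC1, elav and brp after their values were seen. Replicate numbers were taken to pair KD with PARPi, since the deviations of every same-numbered pair correlated (0.57, 0.33 and 0.13, a rule of over 0.1). The last pair is weak: PARPi replicate 3 correlated best with KD replicate 2. The labels name no batch, and the blocked fit also held the WT libraries. The genes and lists were chosen with earlier results of these data known. Listed genes nvd and let-7-C were not analysed here. No sequence was used here.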

Additional observations from a re-analysis of the deposited data

Results flagged for a closer look

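The KD difference was not the same in December and in October for 3 genes. For Eip78C the KD difference of December minus that of October was -1.31 on the log2 scale, for br it was 0.50 and for Eip71CD it was 0.40, each by a test of the difference in edgeR (adjusted p = 0.0160, 0.00596 and 0.00422). The KD and PARPi differences, which share the WT libraries, differed for br, by 0.47 on the log2 scale (edgeR adjusted p = 0.0150). No library stood apart from its group in the 4 KD October libraries by Dixon's test for any of the 9 genes, and groups of 3 were not tested.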

How the results depend on the processing

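Of the 54 log2 fold changes (9 genes in 6 comparisons), 16 were called, and none of these changed sign in any alternative. The count of genes called in KD December was 0. It was 1 with no filter, the length trend removed, DESeq2, only the groups compared or both months with a month term (a KD difference over both months). It was 2 with plain totals without the 20 top genes or with the replicate block, and leaving out 1 library gave 0 to 1. In PARPi December it was 0, and 1 with no filter, the length trend removed, DESeq2 or the replicate block. Between KD and PARPi it was 1, and it was 2 with no filter, 3 with the length trend removed, 4 with the replicate block and 0 to 1 without 1 library. In KD October it was 6, and leaving out 1 library gave 1 to 4: 2 without KD replicate 3 or 4, and 1 without WT replicate 2 or 3. Some October calls were also lost with all libraries kept. With the length trend removed EcR (edgeR adjusted p = 0.407) and Eip78C (edgeR adjusted p = 0.0638) were not called. Plain totals lost EcR (edgeR adjusted p = 0.231), and the replicate block lost Eip75B and br. Of the differences between months of KD, 3 were called, and 6 with plain totals. The number of all genes called in December differed by over 1.5 times in PARPi, from 34 to 293 with no filter, 133 with the length trend removed, 135 with DESeq2, 496 with the replicate block and 18 with filterByExpr, in KD, from 907 to 1609 with the replicate block and 1895 with the month term, between KD and PARPi, from 648 to 1269 with no filter, 1321 with the length trend and 1738 with the block, and in the difference between months of KD, from 1784 to 3013 with plain totals. With plain totals 79.1% of the calls in KD December were higher, against 244 of 907 with TMM, and the median of all genes moved to 0.14. Without 1 library KD December had 251 to 1212 genes called (293 without KD replicate 1, 251 without KD replicate 3, 417 without WT replicate 2, 258 without WT replicate 3), and KD against PARPi 179 to 1608 (247 without KD replicate 1, 179 without KD replicate 3, 344 without PARPi replicate 2, 199 without PARPi replicate 3, and more without KD replicate 2, 1092, or PARPi replicate 1, 1608). PARPi December had 4 to 91 (4 without PARPi replicate 3 or WT replicate 1, 6 without KD replicate 3, 8 without WT replicate 3, 14 without WT replicate 2, 68 without PARPi replicate 2, 69 without KD replicate 1, 91 without PARPi replicate 1).

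Same-numbered libraries did not all deviate together between KD and WT (correlations -0.04 to 0.23 in December and 0.00 to 0.13 in October) or between PARPi and WT (0.00 to 0.14), and a library correlated best with its own number in 9 of 18 cases in December and 3 of 6 in October. For these comparisons, apart from the October calls it lost, the replicate block is given here only. In KD December it called EcR (0.19) and br (0.35), and in PARPi December ftz-f1 (0.26). In KD October it did not call Eip75B (edgeR adjusted p = 0.0597) or br (edgeR adjusted p = 0.0861). No paired analysis was possible for WT December against WT October because the numbers run within a month.

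The fold changes that changed sign were all uncalled. In KD December the length trend gave usp -0.028, Eip74EF -0.034, Eip75B -0.031 and ftz-f1 -0.0071. The fit with a month term gave Eip74EF -0.11, Eip75B -0.051, Eip78C 0.10 and Eip71CD -0.13. It pools the KD difference over both months, so these are not values of December alone. In PARPi December Eip71CD was 0.00091 with no filter, 0.0035 with filterByExpr, 0.0074 with the length trend, 0.026 with plain totals and 0.0072 with only the groups compared, and the length trend gave Eip75B 0.052 and br 0.010. Between KD and PARPi the length trend gave Eip75B -0.083 and Hr4 -0.10, and plain totals gave Eip74EF 0.0053. In KD October ftz-f1 was -0.078 with the length trend and -0.051 with plain totals, and Hr4 was 0.18 with the replicate block. In the difference between months of KD, EcR was 0.0139 with RLE factors, 0.0138 with DESeq2, 0.046 with filterByExpr, 0.035 with the length trend and 0.21 with plain totals, which gave Hr4 0.053. Without 1 library, KD December gave Eip74EF -0.036 to 0.19, Eip75B -0.031 to 0.077 and Hr4 -0.56 to 0.27. PARPi December gave EcR -0.050 to 0.077, Eip75B -0.092 to 0.025, Eip71CD -0.049 to 0.087, br -0.22 to 0.019 and Hr4 -0.76 to 0.22. KD against PARPi gave Eip71CD -0.019 to 0.13 and Hr4 -0.15 to 0.43. KD October gave ftz-f1 -0.014 to 0.043 and Hr4 -0.68 to 0.18. The difference between months of KD gave EcR -0.063 to 0.12, Hr4 -0.52 to 0.41 and ftz-f1 -0.0092 to 0.12. WT December against WT October gave Hr4 -0.81 to 0.0034. The cause of these changes was not tested. Counting error limits Hr4 and Eip78C, and the other 7 genes had at least 420 counts per library.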
